A study of Arabidopsis thaliana with 156 samples.

Results

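Cytochrome P450 genes of Arabidopsis thaliana were followed through shoot apices, leaf primordia and leaves. Genes were taken where a probe set had a single gene symbol that starts with CYP and a digit, and CYP78A9 was left out. This gave 19 of the 19324 probe sets on the arrays, 1 for each gene. The symbols did not all stand for P450s. In RefSeq, 17 of the 19 genes encode cytochromes P450, and the other 2, CYP71 (AT3G44600) and CYP59 (AT1G53720), encode cyclophilins, which share only the prefix. The 17 are therefore described as the P450 genes, and the cyclophilins are given apart from them. Of the 17, 15 belong to subfamily CYP71B, and the others are CYP718 and CYP84A4. RefSeq holds 237 genes with a P450 symbol of this form and 35 with a CYP71B symbol, so the genes measured here are a sample of the family drawn largely from 1 subfamily.

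P450s are haem-thiolate monooxygenases. In plants most are anchored in the membrane of the endoplasmic reticulum and receive electrons from NADPH-cytochrome P450 reductase. They oxidise hormones, phenylpropanoids, terpenoids, fatty acids and a wide range of defence compounds. The CYP71 family is one of the largest in plants, and its genes often lie side by side in tandem arrays. For most CYP71B enzymes no role is stated here. The exceptions are CYP71B31, which oxidises linalool in flowers, and CYP71B6, which acts on indole-3-acetonitrile on the way to indole-3-carboxylic acid. CYP84A4 takes part in the synthesis of arabidopyrones, and no role is stated for CYP718.

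All plants were Col-0 with the FRI allele of Sf-2, an activator of the floral repressor gene FLC. One genotype kept a working FLC (FRI;FLC), and the other carried flc-3 in its place (FRI;flc-3). A further line, FRI;FLC with a target mimic of miR156 driven by the 35S promoter, makes an RNA that lowers miR156 activity. Apices were taken from FRI;FLC at days 4, 6, 9, 11, 14 and 21, from FRI;flc-3 at days 4, 6, 9 and 11, and from the mimic line at day 6. Primordia of 1 mm and fully expanded leaves came from leaves 1/2, 3, 5, 7, 9 and 11 of both genotypes, the primordia in experiment 1 and the expanded leaves in experiments 1 and 2. Primordia were taken at days 6, 9, 11, 14, 16 and 18 in both genotypes. In experiment 1, expanded leaves were taken at days 14, 23, 26, 29, 33 and 34 in FRI;FLC and, mostly earlier, at days 14, 21, 24, 26, 30 and 30 in FRI;flc-3. In experiment 2 the days were 14, 23, 26 and 29 in both genotypes for leaves 1/2, 3, 5 and 7, and for leaves 9 and 11 day 33 with functional FLC and day 32 with flc-3. Leaves 3, 5 and 7 past full expansion were taken in experiment 2, again at day 33 with functional FLC and day 32 with flc-3. Genotype and plant age thus cannot be told apart in the leaves whose days differ. Leaf 9 was taken later than leaves 1/2, both as primordium and as expanded leaf. Leaf position and plant age therefore cannot be told apart in the comparisons of position. Leaf 11 of FRI;flc-3 is labelled cauline once expanded, and its primordium carries no such label. Genotype and leaf type cannot be told apart at leaf 11, in expanded leaves or in the primordia that precede them. Apices belong to experiment 2 and primordia to experiment 1, and these organs were not tested against each other. The 156 arrays formed 53 groups, of which 51 held 3 arrays, FRI;FLC apices at day 6 held 2, and FRI;flc-3 apices at day 6 held 1.

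Values are log2 signals. Array medians lay between 6.40 and 6.92, and arrays of a group correlated at a median r of 0.992 over all probe sets. The slope of signal on gene length differed between groups that are compared. In FRI;FLC apices it was -0.22 to -0.08 at day 4 and 0.34 to 0.39 at day 11. In FRI;FLC it was 0.411 to 0.634 in primordia and -0.305 to 0.410 in expanded leaves. Removal of this trend is among the alternatives. The 2 FRI;FLC day 6 apex arrays were less alike (r = 0.954), and the results of called P450 genes that rest on them are given with and without the first. Each array held RNA pooled from many organs and from 3 collection times, so fewer cells of a type and less RNA per cell cannot be told apart. The meristem gene CLV3 ran from 1.93 through a median of 2.64 to 5.97 in apices, and did not exceed 2.44 in any other organ. In FRI;FLC apices of day 21 it lay between 2.26 and 2.41, so it does not set these apart from expanded leaves. Of 7 listed genes of meristem and organ boundary it was the 1 measured, and of 6 listed flower genes 0 were. RCA, of photosynthetic tissue, was at least 10.84 in every array. P450 genes are compared only with themselves, since probe sets differ in their response, and cross-hybridisation between CYP71B paralogs was not tested.

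The level of several P450 genes ran from the lowest signals on the arrays to high ones. The group means of CYP71B23 (AT3G26210) spanned 7.75 log2 units, from 1.46 in FRI;FLC primordia of leaf 3 to 9.21 in FRI;FLC expanded leaf 9 of experiment 1. CYP71B22 (AT3G26200), its neighbour on chromosome 3, spanned 7.70 units in another pattern, from 1.20 in FRI;flc-3 expanded leaves 1/2 of experiment 2 to 8.89 in FRI;flc-3 primordia of leaf 11. CYP71B24 (AT3G26230) spanned 7.27 units. The lowest group means of these 3 genes, 1.46, 1.20 and 1.63, lie under 2.03, the signal that 10% of all values fall under, so their spans are not ranked against other genes. The spans of CYP71B36, CYP71B26, CYP71B35, CYP71B37 and CYP71B34 lay between 5.21 and 5.74. CYP84A4 spanned 4.95, CYP71B28 4.88, CYP71B29 4.02, CYP71B5 4.01 and CYP71B6 3.59 units. CYP71B31 (AT3G53300) had a mean of 1.64 and was below 2.03 on all 156 arrays. This is the only measured gene among 11 listed P450s of terpenoid synthesis. CYP71B25 (AT3G26270), CYP71B38 (AT3G44250) and CYP718 (AT2G42850) had means of 2.09, 2.14 and 2.05 and highest values of 2.67, 2.70 and 3.17. For these 4 genes, every level is near the lowest signals on the arrays.

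**Figure D1:**
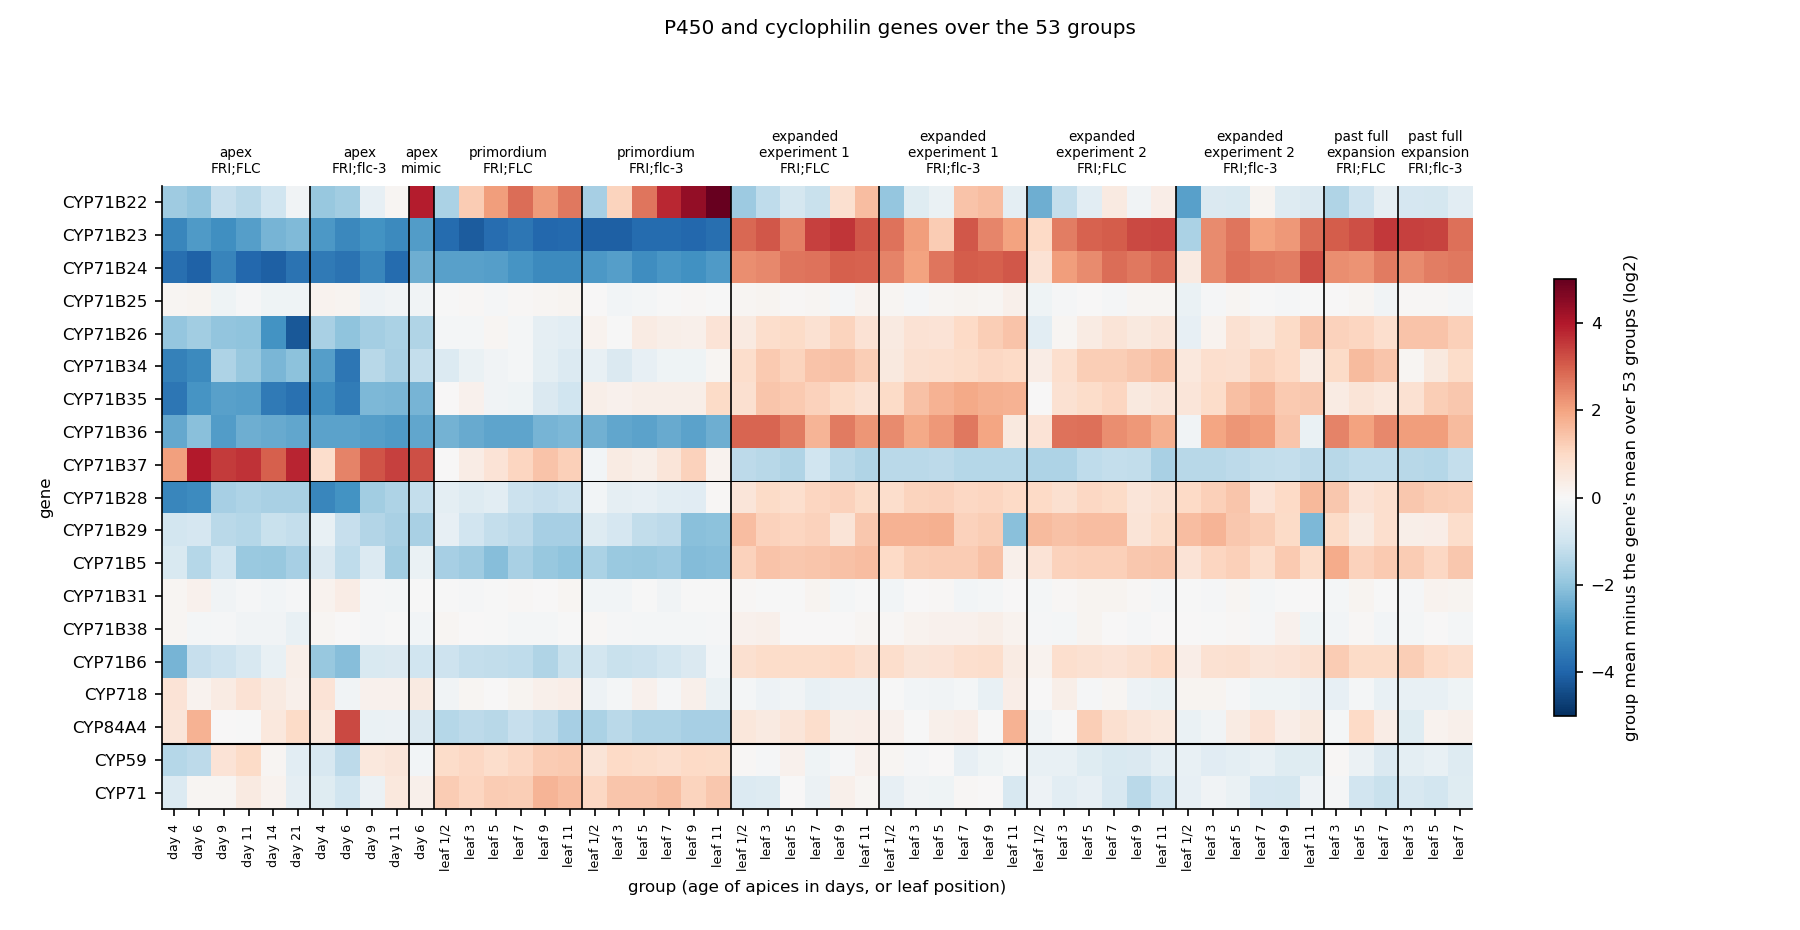
Heat map of the 19 genes (rows) over the 53 groups (columns, in blocks of organ, genotype and experiment), with colour giving the group mean of log2 signal minus that gene's own mean over the groups. CYP71B23, CYP71B24 and CYP71B36 are low in apices and primordia and high in leaves, CYP71B37 is high in apices, and CYP71B22 is highest in late FRI;flc-3 primordia and the mimic apices.

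The largest single difference of a P450 gene lay between primordia and expanded leaves. This did not hold gene by gene, since CYP71B22, CYP71B29, CYP71B26 and CYP71B6, among others, differed more in another comparison. In experiment 1, expanded rosette leaves were set against primordia of the same position and genotype, leaving out leaf 11 (30 arrays each). Of 17 P450 genes, 12 were higher in expanded leaves, 3 were lower, and CYP71B25 and CYP71B31 were not called. This comparison called 88% of all probe sets (42.7% higher, 45.2% lower). The share of P450 genes called in either direction, 88.2%, is near that background, but their split between higher and lower is not. That split was not tested. The median difference of the P450 genes was 1.40 against -0.02 over all probe sets.

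CYP71B23 ran from 6.64 through a median of 8.45 to 9.72 in expanded leaves and from 1.39 through 1.68 to 2.54 in primordia. Its signal rose by 6.63 ± 0.12 (SE). No fold is given, since the primordium median lies under 2.03 and the gene's level there is not shown to stand above background. CYP71B24 ran from 7.23 through 8.32 to 9.23 against 2.30, 2.81 and 3.21, a rise of 5.53 ± 0.08. The 2 sets of arrays were far apart for both genes, and primordia held them close to the lowest signals measured. CYP71B36 (AT3G26320) lay between 6.26 and 8.53 in expanded leaves, with a median of 7.66, and between 2.23 and 3.08 in primordia, with a median of 2.68. It rose by 4.91 ± 0.10. CYP71B5 (AT3G53280), already at 6.64 to 7.54 in primordia, rose by 3.14 ± 0.05 to values between 9.82 and 10.59. CYP71B29 (AT1G13100) rose by 2.48 ± 0.07, from 2.04 to 3.93 in primordia to 4.78 to 6.32 in expanded leaves. None of these 5 genes had overlapping arrays, and each rise was seen in all 10 pairs of position and genotype.

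Smaller rises were those of CYP71B6 (AT2G24180; 1.94 ± 0.06), the indole-3-acetonitrile enzyme, and of CYP84A4 (AT5G04330; 1.79). CYP71B28 rose by 1.59, CYP71B34 by 1.40, CYP71B35 by 1.30, CYP71B26 by 0.78 and CYP71B38 by 0.19. The call of CYP71B38, one of the 12, was lost with a trend on gene length removed (0.07, adjusted p = 0.0673, with a range of 2.28e-06 to 0.0673 over the alternatives). In contrast to these genes, CYP71B37 (AT3G26330) fell by 1.92 ± 0.07. Its primordia lay between 3.16 and 5.72 and its expanded leaves between 2.00 and 2.90, with no overlap. CYP71B22 fell by 2.11 ± 0.13, with overlapping arrays, and its level in primordia differed widely between positions, which were taken at different ages. CYP718 fell by 0.24. Among partner genes of P450 pathways, BCAT4, of methionine chain elongation for glucosinolates, rose by 9.11, UGT74B1, a glucosinolate glucosyltransferase, by 1.42, and HCT, of lignin synthesis, by 0.80.

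**Figure D2:**
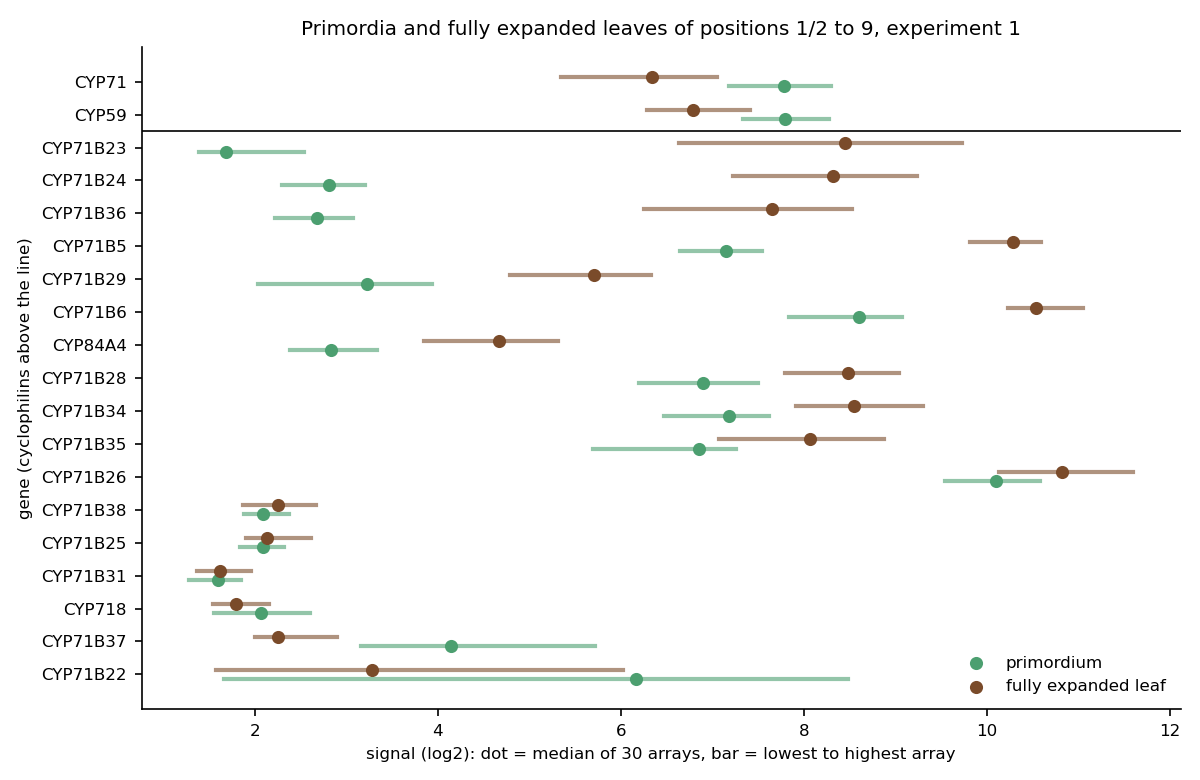
Log2 signal of the 17 P450 genes and 2 cyclophilins in primordia and in expanded rosette leaves of the same positions and both genotypes in experiment 1, with a dot at the median of 30 arrays and a bar from the lowest to the highest. CYP71B23, CYP71B24 and CYP71B36 lie 4.91 to 6.63 units higher in expanded leaves, while CYP71B37 is the lower there of 2 sets of arrays that do not overlap.

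CYP71B22 had the largest difference of the 17 P450 genes between early and late primordia. In FRI;FLC its 3 arrays were 2.15, 2.53 and 2.28 at leaves 1/2, then 5.38, 4.54 and 5.63 at leaf 3, and 6.15, 6.41 and 5.42 at leaf 5. Leaf 7 had 6.97, 6.53 and 6.67, leaf 9 had 6.17, 6.19 and 5.81, and leaf 11 had 6.58, 6.28 and 6.79. The level thus stood well above leaves 1/2 from leaf 3 on and went little further after leaf 7 in this genotype. In FRI;flc-3 the arrays were 1.67, 2.50 and 2.54 at leaves 1/2, 4.77, 4.73 and 5.56 at leaf 3, and 6.44, 6.63 and 6.68 at leaf 5. They were 7.83, 7.60 and 7.63 at leaf 7, 8.48, 8.28 and 8.20 at leaf 9, and 9.27, 8.59 and 8.83 at leaf 11. The genotypes overlapped at leaves 1/2 and 3 and were fully apart at leaves 5, 7, 9 and 11, where FRI;flc-3 was the higher.

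From leaves 1/2 to leaf 9, the signal of CYP71B22 rose by 4.91 ± 0.18 over both genotypes (adjusted p = 1.29e-22). The arrays of leaves 1/2 lie on both sides of 2.03, so no fold is given. The rise was 3.74 ± 0.26 with functional FLC and 6.09 ± 0.26 with flc-3, and the difference of 2.35 ± 0.36 was called (adjusted p = 3.43e-05). That test of a difference called 2.79% of all probe sets (1.87% in this direction and 0.921% in the other), and CYP71B22 was the only one of the 17 P450 genes among them. The mean genotype difference over all 6 positions was 0.99 ± 0.11 (adjusted p = 1.87e-09), made up of differences of -0.09, -0.16, 0.59, 0.96, 2.26 and 2.34 at leaves 1/2, 3, 5, 7, 9 and 11. The last of these sets a leaf that becomes cauline against one that becomes a rosette leaf.

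**Figure D3:**
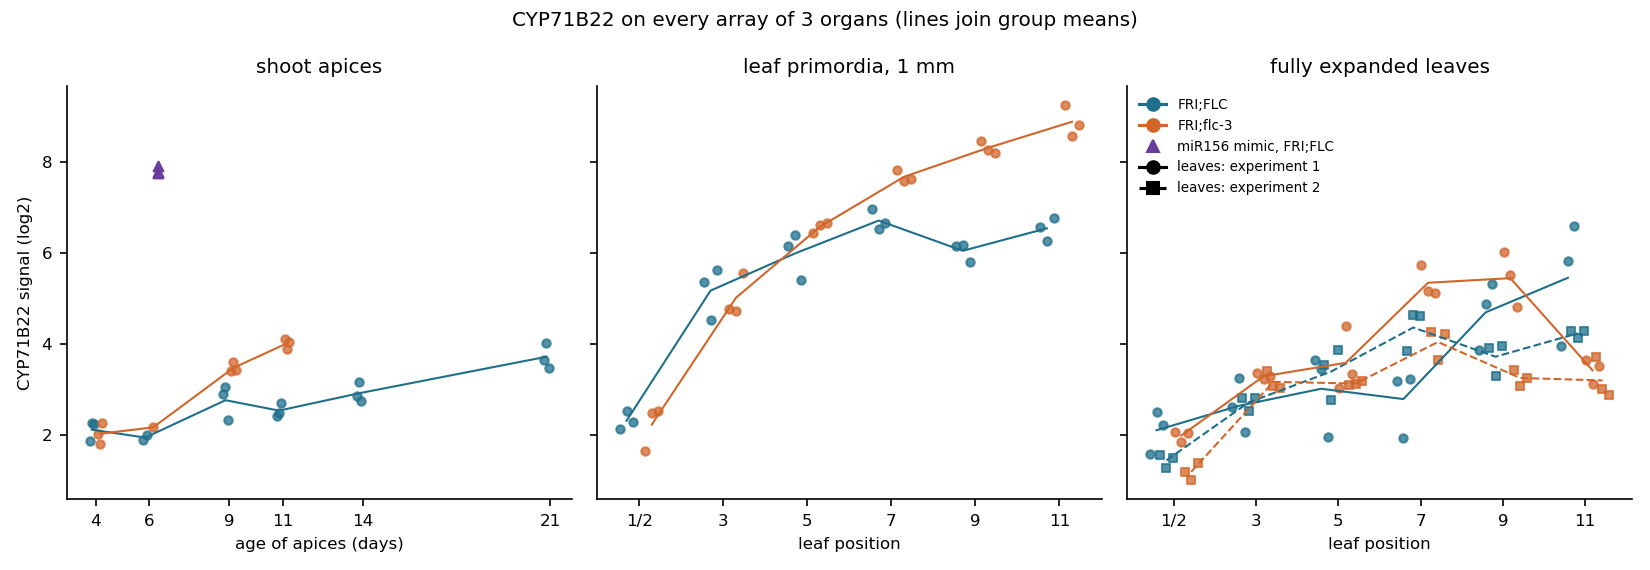
Log2 signal of CYP71B22 on every array, by age in apices and by leaf position in primordia and expanded leaves, coloured by genotype and line. The 3 mimic apices, at 7.77 to 7.92, stand above all other apices, and FRI;flc-3 primordia reach 9.27 at leaf 11 against 6.79 in FRI;FLC.

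The other P450 genes moved less with primordium position. Between leaves 1/2 and leaf 9, 3 of 17 were higher at leaf 9, 5 were lower and 9 were not called, against 45.8% of all probe sets called (24.4% higher, 21.4% lower). CYP71B37 lay between 3.16 and 4.11 at leaves 1/2, with a median of 3.49, and between 4.23 and 5.72 at leaf 9, with a median of 4.92. It rose by 1.36 ± 0.18 without overlap. CYP71B29 took the opposite course, from 3.54, 3.86 and 3.93 (lowest, median and highest) at leaves 1/2 to 2.04, 2.52 and 2.82 at leaf 9, and fell by 1.33 ± 0.11. These 2 genes, CYP71B22 and CYP718 had no overlap between the positions, although CYP718 was near the lowest signals at both. CYP718 rose by 0.48 ± 0.10. CYP71B28 fell by 0.55 ± 0.13, CYP71B5 by 0.40 ± 0.12, CYP71B35 by 0.35 ± 0.13 and CYP71B38 by 0.19 ± 0.07. The CYP71B35 difference was present in 1 of the 2 genotypes. Its call was lost without replicate 1 or 2 (adjusted p of 0.0944 and 0.328), that of CYP71B5 without replicate 3 (0.0546), and that of CYP71B38 without any 1 of the replicates (0.0606 to 0.434). TRY, a trichome gene, rose by 1.75 in the same comparison, and its part in these values was not tested.

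Between the genotypes, averaged over all 6 primordium positions (18 arrays each), 5 of 17 P450 genes were higher in FRI;flc-3, 3 were lower and 9 were not called, where 21.3% of all probe sets were called (11% higher, 10.3% lower). CYP71B35 (AT3G26310) ran from 6.64 through 6.98 to 7.75 with flc-3 and from 5.48 through 6.46 to 7.03 with functional FLC. The genotypes differed by 0.70 ± 0.07 (adjusted p = 1.08e-09). Its difference was 0.26, 0.03, 0.44 and 0.52 at leaves 1/2, 3, 5 and 7, then 1.02 at leaf 9 and 1.95 at leaf 11. At leaf 11 the FRI;flc-3 arrays were 7.71, 7.49 and 7.75 and the FRI;FLC arrays 6.05, 5.48 and 5.57. As with CYP71B22, the widest gaps stood at the last positions, and leaf type is part of the contrast at leaf 11.

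CYP71B26 (AT3G26290) was higher by 0.49 ± 0.05, CYP71B28 (AT1G13090) by 0.48 ± 0.07 and CYP71B6 by 0.40 ± 0.08, each at all 6 positions. Their ranges over all positions overlapped between genotypes. CYP71B37 was lower in FRI;flc-3 by 0.38 ± 0.11, CYP84A4 by 0.19 ± 0.06 and CYP718 by 0.15 ± 0.05. Without leaf 11, an alternative chosen after seeing the data, CYP71B22 was higher by 0.71 and CYP71B35 by 0.46. CYP71B37 (-0.25, adjusted p = 0.176) and CYP718 (-0.05, adjusted p = 0.702) were no longer called. Over all alternatives the adjusted p ranged from 0.00118 to 0.192 for CYP71B37 and from 0.0335 to 0.702 for CYP718. CYP71B37 lost its call without replicate 1 or 3 as well. CYP718 and CYP84A4 lost theirs without any 1 of replicates 1, 2 and 3, for CYP84A4 with adjusted p of 0.0552 to 0.159.

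In FRI;FLC apices some P450 genes rose and others fell with age. From day 4 to day 21, 6 of 17 rose, 3 fell and 8 were not called. The share called, 52.9%, was near the 50.1% of all probe sets (25.2% higher, 25% lower). The median difference was -0.03, against -0.02 over all probe sets. CYP71B6 had 7.51, 7.45 and 7.25 at day 4 and 10.16, 9.94 and 9.86 at day 21, with 9.12, 8.75 and 8.81 at day 11 between them. It rose by 2.59 ± 0.19 (adjusted p = 1.6e-11). CYP71B26 had 7.93, 8.25 and 8.17 at day 4, 7.15, 7.22 and 6.78 at day 14, and 6.03, 5.43 and 5.96 at day 21. It fell by 2.31 ± 0.25 (4.97-fold, adjusted p = 1.24e-08), and days 4, 14 and 21 did not overlap. CYP71B37 rose by 1.73 ± 0.33, from 6.10, 5.62 and 5.31 to 7.05, 7.58 and 7.59. CYP71B28 rose by 1.64 ± 0.36, from 4.72, 4.17 and 3.84 to 6.23, 5.38 and 6.04. CYP71B22 rose by 1.60 ± 0.20, from 1.87, 2.26 and 2.24 to 3.66, 4.03 and 3.49. The days were apart for each of these genes.

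CYP71B34 (AT3G26300) rose by 1.33 ± 0.43 and CYP71B23 by 1.04 ± 0.23. CYP71B5 fell by 0.90 ± 0.26 and CYP71B38 by 0.48 ± 0.15. Without replicate 1, CYP71B34 (adjusted p = 0.211) and CYP71B38 (adjusted p = 0.112) lost their calls, and CYP71B5 lost its call without replicate 2 (adjusted p = 0.0664). CLV3 fell by 2.01, RCA by 0.70 and TRY by 1.89 over the same days, and UGT74B1 rose by 1.94 and BCAT4 by 1.33. The part of meristem, photosynthetic or trichome tissue in the P450 values was not tested.

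Over the shorter course from day 4 to day 11 both genotypes could be set side by side. FRI;FLC had 5 P450 genes higher, 1 lower and 11 not called (60.4% of probe sets called, 30.8% higher and 29.6% lower), and FRI;flc-3 had 6 higher, 2 lower and 9 not called (60% called, 31.2% higher and 28.8% lower). CYP71B37 went from 6.10, 5.62 and 5.31 to 7.40, 7.65 and 6.69 in FRI;FLC and from 4.27, 5.03 and 4.15 to 7.29, 6.91 and 6.94 in FRI;flc-3. The rises were 1.57 ± 0.33 and 2.56 ± 0.33. CYP71B28 rose by 1.69 ± 0.36 in each genotype, CYP71B6 by 1.49 ± 0.19 and 1.18 ± 0.19, CYP71B34 by 1.46 ± 0.43 and 1.13 ± 0.43, and CYP71B35 by 0.83 ± 0.27 in each. CYP71B5 fell by 1.10 ± 0.26 in FRI;FLC and by 1.02 ± 0.26 in FRI;flc-3. With 1 replicate left out, the calls of CYP71B34 and CYP71B35 were lost in both genotypes and that of CYP71B5 in FRI;FLC, at adjusted p of 0.0531 to 0.390. Replicate 1 ended those of CYP71B34 and CYP71B35, replicate 3 also that of CYP71B34 in FRI;flc-3, and replicate 2 that of CYP71B5. Quantile normalization also ended the calls of CYP71B35 in FRI;FLC and CYP71B34 in FRI;flc-3. In FRI;flc-3, CYP71B29 fell by 1.25 ± 0.26, from 3.96, 4.57 and 3.29 to 2.60, 2.60 and 2.87.

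CYP71B22 rose by 1.99 ± 0.20 in FRI;flc-3, from 2.02, 1.81 and 2.27 at day 4 through 3.41, 3.60 and 3.43 at day 9 to 4.11, 3.89 and 4.06 at day 11. FRI;FLC apices had 2.91, 3.05 and 2.35 at day 9 and 2.43, 2.49 and 2.71 at day 11, and no rise was called there. The change was larger in FRI;flc-3 by 1.57 ± 0.28 (adjusted p = 0.00639), in a test that called 0.476% of all probe sets, 0.186% in this direction and 0.29% in the other. Leaving out 1 replicate ended this call each time, with adjusted p of 0.201, 0.104 and 0.0773 without replicates 1, 2 and 3, and 0.00478 to 0.201 over all alternatives. Averaged over days 4, 9 and 11, CYP71B22 was the only P450 gene that differed between the genotypes in apices (0 lower, 16 not called), where 1.12% of all probe sets were called (0.74% higher, 0.378% lower). Its mean was 3.18 with flc-3 against 2.48 with functional FLC, higher by 0.70 ± 0.11 (adjusted p = 0.000654). The daily differences were -0.09, 0.71 and 1.48. This call too was lost without replicate 1 (adjusted p = 0.105) and without replicate 3 (adjusted p = 0.0585), in a range of 0.000355 to 0.105 over the alternatives. At an unadjusted p under 0.05, 5 P450 genes differed.

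In day 6 apices of the miR156 mimic line, 5 of 17 P450 genes were higher than in FRI;FLC, 2 were lower and 10 were not called, against 31.9% of all probe sets called (17.7% higher, 14.2% lower). CYP71B22 had 7.79, 7.92 and 7.77 in the mimic line and 1.90 and 2.00 in FRI;FLC. The signals differed by 5.88 ± 0.22 (adjusted p = 2.4e-17). Both control arrays lie under 2.03, among the lowest signals measured, so no fold is given. No other apex array of either genotype, at any age to day 21, exceeded 4.11. CYP71B24 had 3.46, 3.04 and 3.30 against 1.78 and 1.56, a rise of 1.60 ± 0.24 (adjusted p = 2.14e-05). Both control arrays of this gene also lie under 2.03, so no fold is given. CYP71B34 was higher by 1.99 ± 0.48, with 6.59, 5.59 and 6.73 against 3.60 and 5.03. CYP71B28 was higher by 1.94 ± 0.40, with 6.53, 6.03 and 6.32 against 3.49 and 5.22. CYP71B5 was higher by 1.07 ± 0.29, with 8.40, 8.63 and 8.77 against 7.22 and 7.84. Line and control arrays did not overlap for these genes, but the 2 control arrays of CYP71B34 and CYP71B28 were themselves more than a log2 unit apart.

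CYP84A4 was lower by 2.45 ± 0.71 (adjusted p = 0.01), with 3.49, 3.53 and 3.65 against 7.72 and 4.30. The first control array and the single FRI;flc-3 array of that day, at 7.55, were the highest of all apex arrays for this gene. CYP71B29 was lower by 0.79 ± 0.29 (adjusted p = 0.0378), with 2.60, 2.82 and 2.74 against 3.48 and 3.53. Leaving out either control array, or the first or last mimic array, ended that call (adjusted p of 0.0763 to 0.198). When the first FRI;FLC array was left out, CYP71B22 (5.82) and CYP71B24 (1.71) were still called and the other 5 were not. Without it CYP71B28 differed by 1.07 (adjusted p = 0.135), CYP71B34 by 1.27 (0.187), CYP71B5 by 0.76 (0.213) and CYP71B29 by -0.81 (0.198). Over all alternatives their adjusted p ranged from 7.52e-06 to 0.135, 0.000317 to 0.187, 0.00217 to 0.222 and 0.0377 to 0.268. The CYP84A4 difference was then -0.74 (adjusted p = 0.641), and over all alternatives its adjusted p ranged from 4.07e-05 to 0.641. BCAT4 was lower in the mimic apices by 5.23, UGT74B1 by 0.72 and CLV3 by 1.80, and RCA was higher by 1.05. Without the first control array, an alternative added after seeing the data, their differences were -5.20, -0.97, -1.58 and 0.71, all still called.

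In expanded rosette leaves most P450 genes that moved with position were higher in the later leaf. Leaf 9 had 9 of 17 higher than leaves 1/2, 2 lower and 6 not called, and 56.6% of all probe sets were called (28.3% higher, 28.2% lower). The median P450 difference was 0.29, against 0.00 over all probe sets. CYP71B22 ran from 1.01 through 1.57 to 2.52 at leaves 1/2 and from 3.08 through 3.94 to 6.02 at leaf 9 (12 arrays each). Its signal rose by 2.60 ± 0.20 without overlap, by 3.03 in experiment 1 and 2.17 in experiment 2. The median at leaves 1/2 lies under 2.03, among the lowest signals measured, so no fold is given. CYP71B26 rose by 0.96 ± 0.09 (0.74 and 1.18 in experiments 1 and 2) and CYP71B34 by 0.64 ± 0.10 (0.57 and 0.71). CYP71B5 and CYP71B35 each rose by 0.53, with SE of 0.09 and 0.10. CYP71B29 fell by 0.73 ± 0.15, by 0.70 in experiment 1 and 0.75 in experiment 2, and CYP718 fell by 0.28.

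The 2 experiments did not give the same values for the genes that rise most with expansion. CYP71B23 rose by 1.62 ± 0.21 with position over both, but by 3.02 in experiment 2 and only 0.22 (adjusted p = 0.62) in experiment 1. In experiment 1, leaves 1/2 had 8.68, 8.11 and 8.64 with functional FLC and 8.00, 7.99 and 9.06 with flc-3. In experiment 2 the same leaves had 6.68, 6.32 and 6.83 with functional FLC and 4.23, 3.85 and 4.08 with flc-3. The day was 14 in both experiments, and the later positions were closer to each other. CYP71B24 rose by 1.29 ± 0.15, by 0.58 in experiment 1 and 2.00 in experiment 2. CYP71B36 rose by 0.58 ± 0.18 over both, with -0.36 (adjusted p = 0.291) in experiment 1 and 1.52 in experiment 2, and its call was lost without replicate 1 (adjusted p = 0.0848). CYP71B6 rose by 0.29 ± 0.08, with 0.09 and 0.50. Position called 34.6% of all probe sets in experiment 1 and 62.3% in experiment 2. Tested directly, an alternative added after seeing the data, the position change was larger in experiment 2 by 2.80 for CYP71B23, 1.88 for CYP71B36 and 1.42 for CYP71B24. That test called 44% of all probe sets.

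Between the genotypes, 2 of 17 P450 genes were higher in FRI;flc-3 rosette leaves, 3 were lower and 12 were not called, where 34% of all probe sets were called (16.5% higher, 17.5% lower), with 30 arrays each and leaf 11 left out. CYP71B35 ran from 7.24 through 8.09 to 8.87 in FRI;flc-3 and from 6.65 through 7.66 to 8.59 in FRI;FLC. It was higher with flc-3 by 0.50 ± 0.06 in all 10 pairs of position and experiment, by 0.44 in experiment 1 and 0.56 in experiment 2. This is the direction it also had in primordia. CYP71B23 ran from 3.85 through 7.85 to 9.72 in FRI;flc-3 and from 6.32 through 8.66 to 9.53 in FRI;FLC, lower by 0.90 ± 0.13 in all 10 pairs. The 2 genotypes overlapped widely for both genes over the positions.

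CYP71B36 was lower in FRI;flc-3 by 0.48 ± 0.11 (experiment 1 -0.34, adjusted p = 0.104, and experiment 2 -0.63), and CYP71B34 by 0.29 ± 0.06 (-0.40, and -0.17 with an adjusted p of 0.213). CYP71B22 was higher by 0.36 ± 0.12 over both experiments, in 5 of the 10 pairs. The value was 0.88 in experiment 1 and -0.17 (adjusted p = 0.59) in experiment 2, and the call was lost without replicate 1 (adjusted p = 0.114) or replicate 2 (adjusted p = 0.0882). Genotype called 27.5% of all probe sets in experiment 1 and 15.5% in experiment 2, and the difference between experiments, called for 3.21% of them, was called for CYP71B22 (-1.05, adjusted p = 0.00713).

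Leaf 11 was cauline in FRI;flc-3 and a rosette leaf in FRI;FLC, and of 17 P450 genes 4 were higher and 7 lower in the cauline leaf, with 6 not called and 38.3% of all probe sets called (19.7% higher, 18.6% lower; 47.7% in experiment 1 and 29.4% in experiment 2). CYP71B29 had 2.17, 1.99 and 2.53 in the cauline leaves of experiment 1 and 1.78, 2.14 and 2.36 in those of experiment 2. The rosette leaves had 5.85, 6.10 and 5.06, and 5.46, 4.94 and 5.34. It was lower by 3.30 ± 0.21 (adjusted p = 1.15e-21), with cauline arrays near the lowest signals measured, by 3.44 in experiment 1 and 3.16 in experiment 2. No expanded rosette leaf of either genotype was below 4.78, and leaf 9 of FRI;flc-3 had 5.76, 5.52 and 5.35 in experiment 1 and 5.31, 4.86 and 5.71 in experiment 2. Primordia of leaf 9, from experiment 1, had 2.04 to 2.82.

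CYP71B36 had 6.35, 4.37 and 6.38, and 4.60, 4.68 and 5.32 in cauline leaves against 7.23, 7.00 and 8.03, and 7.27, 7.27 and 6.43 in rosette leaves. It was lower by 1.92 ± 0.25. CYP71B22 was lower by 1.53 ± 0.28 (experiment 1 -2.03, experiment 2 -1.04), and its cauline arrays lay between 2.88 and 3.71 and its rosette arrays between 3.95 and 6.61. In leaf 11 the gene thus stood lower in FRI;flc-3 once expanded, and higher in FRI;flc-3 as a primordium. CYP71B5 was lower by 0.87 ± 0.13 (-1.27, and -0.46 with an adjusted p of 0.0579). CYP71B34 was lower by 0.65 ± 0.14 (-0.22 with an adjusted p of 0.376, and -1.09). CYP71B23 was lower by 0.80 ± 0.30 and CYP71B6 by 0.29 ± 0.11, and both calls were lost without replicate 1 or replicate 3, with adjusted p of 0.116 to 0.319.

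Higher in the cauline leaf were CYP71B35 by 0.86 ± 0.14, CYP71B26 by 0.74 ± 0.13, CYP71B28 by 0.45 ± 0.17 and CYP718 by 0.32 ± 0.11. CYP71B26 had 11.33, 11.73 and 11.38, and 11.53, 11.42 and 11.37 in cauline leaves against 10.86, 10.64 and 10.82, and 10.60, 10.55 and 10.83 in rosette leaves. CYP71B35 had 8.06, 8.89 and 8.39, and 8.03, 8.01 and 8.12 against 7.65, 7.14 and 7.62, and 7.25, 7.54 and 7.14. Neither gene had overlapping arrays, and both differed by similar amounts in the 2 experiments (0.98 and 0.74 for CYP71B35, 0.71 and 0.78 for CYP71B26). CYP71B28 differed by 0.02 in experiment 1 and 0.87 in experiment 2, and the difference between experiments of 0.85 was called in a test that called 40.8% of all probe sets. CYP718, near the lowest signals, differed by 0.60 in experiment 1 and 0.04 (adjusted p = 0.891) in experiment 2. Its difference between experiments of -0.57 was called in the same test. The calls of CYP71B28 (without replicate 1 or 2) and CYP718 (without replicate 1 or 3) were lost with 1 replicate left out, at adjusted p of 0.0615 to 0.358. TRY was higher by 1.68 in the cauline leaves.

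**Figure D4:**
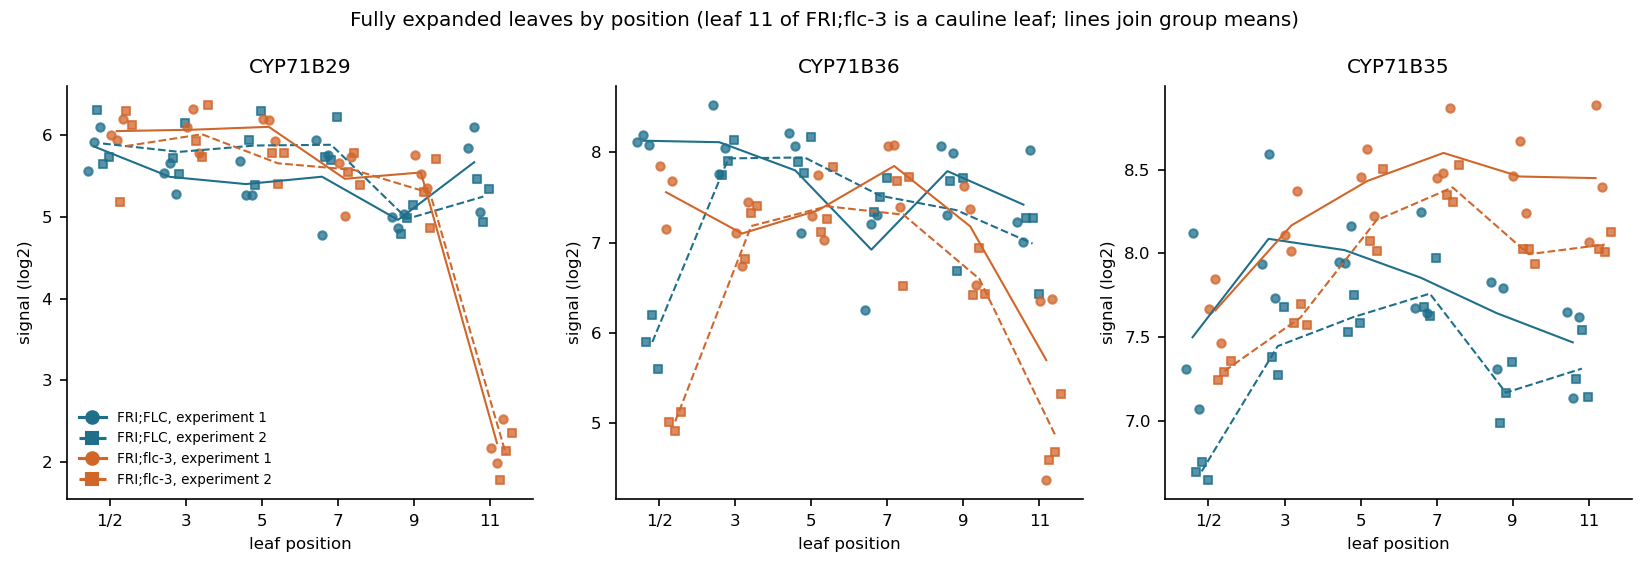
Log2 signal of CYP71B29, CYP71B36 and CYP71B35 in expanded leaves by position, with a point per array, for both genotypes and experiments. At leaf 11 the cauline FRI;flc-3 arrays of CYP71B29 lie between 1.78 and 2.53, under all rosette leaves, while those of CYP71B35 lie above the FRI;FLC arrays.

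Leaves 3, 5 and 7 past full expansion were set against the expanded leaves of the same position in experiment 2 (18 arrays each). Of 17 P450 genes, 4 were higher, 4 lower and 9 not called, with 43.4% of all probe sets called (21.5% higher, 21.9% lower). CYP71B26 ran from 10.75 through 11.29 to 11.67 past expansion and from 9.81 through 10.47 to 10.93 at expansion, and rose by 0.76 ± 0.07. CYP71B29 ran from 4.20 through 4.97 to 5.63 and from 5.39 through 5.76 to 6.37, and fell by 0.84 ± 0.12. Both ranges overlapped at their edges, and both changes were seen in all 6 pairs of position and genotype.

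CYP71B23 rose by 0.63 ± 0.17, CYP71B6 by 0.30 ± 0.06 and CYP71B5 by 0.21 ± 0.08. CYP71B22 fell by 0.43 ± 0.16, CYP718 by 0.33 ± 0.06 and CYP71B35 by 0.32 ± 0.08. The CYP71B22 call was lost without replicate 1 or 3 (adjusted p of 0.119 and 0.167), and the CYP71B5 call without replicate 2 or 3 (0.106 and 0.305). Of the 17 P450 genes, this change differed between the genotypes for CYP71B34 alone, by -0.61 ± 0.17 (adjusted p = 0.0128), in a test that called 7% of all probe sets, 3.45% in the positive and 3.55% in the negative direction. Its change was 0.19 with functional FLC and -0.42 with flc-3, and the call was lost without replicate 1 (adjusted p = 0.151) and replicate 2 (adjusted p = 0.373), in a range of 0.00012 to 0.373 over the alternatives.

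Of the CYP71B genes, 9 lie in a stretch of chromosome 3 that spans 15 protein-coding genes, 11 of them with P450 symbols (gene order from TAIR10.1). They are CYP71B22, CYP71B23, CYP71B24, CYP71B25, CYP71B26, CYP71B34, CYP71B35, CYP71B36 and CYP71B37, and CYP71B3 and CYP71B4 are the other 2. CYP71B28 and CYP71B29 are neighbours on chromosome 1, and CYP71B5 and CYP71B31 lie close to each other elsewhere on chromosome 3. Neighbours did not share 1 pattern. Over the 53 group means, CYP71B23 and CYP71B24 correlated at r = 0.963 and CYP71B23 and CYP71B36 at 0.964, whereas adjacent CYP71B36 and CYP71B37 correlated at -0.831. CYP71B35 and CYP71B37, at -0.904, were the most opposed. The 38 pairs of genes within a stretch had a median r of 0.265, and the 98 pairs from different places had 0.217. With each organ's mean removed, the medians were 0.268 within a stretch and -0.0266 for different places. These are descriptions, since the groups share organs and experiments. CYP71B23 and CYP71B24 correlated at 0.647 and CYP71B36 and CYP71B37 at 0.037 once organ means were removed.

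**Figure D5:**
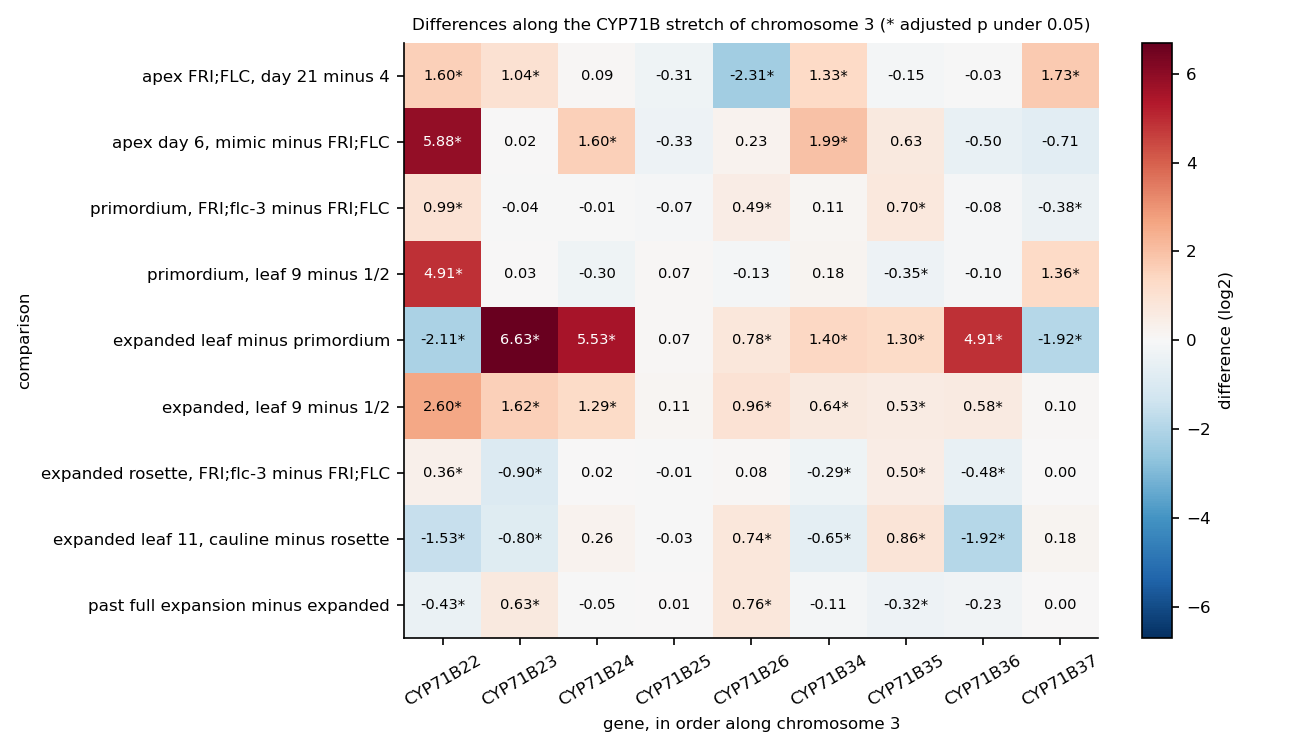
The 9 measured CYP71B genes of the chromosome 3 stretch in their order (one axis) against 9 comparisons (the other), each cell giving the log2 difference, with an asterisk where the adjusted p was under 0.05. CYP71B23, CYP71B24 and CYP71B36 rise together from primordium to expanded leaf, and CYP71B22 and CYP71B37 at the 2 ends fall.

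By organ, CYP71B37 had its highest mean in apices, at 6.62, with 4.23 in primordia, 2.27 in expanded leaves and 2.29 past expansion. CYP71B26 had its lowest mean there, at 7.92, with 10.09, 10.69 and 11.24 in the same order. CYP71B35 had 3.72 in apices and 6.73 in primordia, with 7.83 and 7.51 in the later leaves, and CYP71B34 had 5.24, 7.15, 8.49 and 8.41. CYP84A4 was lowest in primordia, at 2.80, with 4.84 in apices, 4.69 in expanded leaves and 4.45 past expansion. These are means over groups from different experiments and carry no test. The apex means give equal weight to the mimic line and to the single FRI;flc-3 array of day 6. That array was the highest apex group for CYP84A4, at 7.55.

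The 2 cyclophilins went against most of the P450 genes between primordia and expanded leaves. CYP71 is a nuclear protein with WD40 repeats that binds histone H3. CYP59 is a nuclear protein with an RNA recognition motif linked to RNA polymerase II. Both had their highest organ mean in primordia. Their means were 7.81 and 7.83 there, against 6.36 and 6.61 in apices and 6.07 and 6.56 in expanded leaves. These means cover different experiments and carry no test. Group means of CYP59 in apices ran from 5.42 to 7.81, into its primordium range of 7.48 to 8.16. From primordium to expanded leaf CYP71 fell by 1.50 and CYP59 by 1.01. From day 4 to day 11 in FRI;FLC apices CYP59 rose by 2.38 ± 0.40 and CYP71 by 1.15 ± 0.30, and the latter call was lost without replicate 1 (adjusted p = 0.0658). In FRI;flc-3 they rose by 1.42 and 1.12. With a trend on gene length removed, CYP71 rose by 0.64 in FRI;FLC, and its change in FRI;flc-3 was 0.57 (adjusted p = 0.0671, with a range of 0.00132 to 0.0671 over the alternatives). Neither was called between the genotypes in apices, primordia or rosette leaves. CYP59 was also called higher in the mimic line, by 0.24 to 2.04 over the alternatives. At primordium leaf 9 against leaves 1/2 it was called higher, by 0.32 to 0.36 over the alternatives. The mimic call was lost with quantile normalization, among others, and the position call without any 1 of the replicates. In leaf 11 CYP71 was lower in the cauline leaf by 0.90 in experiment 1 (adjusted p = 0.0132) and had a difference of 0.74 in experiment 2 (adjusted p = 0.062), and the mean of the 2 was not called.

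The pathway genes listed around the P450s were little covered. Of 13 glucosinolate genes that are not P450s, BCAT4 and UGT74B1 were measured, of 7 phenylpropanoid genes HCT was, and of 9 genes for electron donors and scaffolds 0 were. Of the listed P450s with known pathways, CYP71B31 was the one measured, and the hormone, glucosinolate and sterol P450s were not analysed here.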

How the data were processed

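The deposited values are log2 signals per probe set and array from the authors. Per the submitters' processing notes, GCRMA and MAS5 took part, without version or role, and a filter on probe sets is not stated. The values were used as deposited. A probe-to-gene table gave 1 gene for 10918 of 19324 probe sets, several for 407 and none for 7999. Symbols were matched to RefSeq (TAIR10.1) for all 19 genes. No sequence is printed.

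limma 3.58.1 (R 4.3.3) fitted 1 coefficient per group to apices (30 arrays), primordia (36), leaves (90), and the primordia and expanded leaves of experiment 1 (72), over all probe sets. Contrasts are means of the differences within positions, days, genotypes or experiments. Tests were two-sided (eBayes with trend), with Benjamini-Hochberg adjustment over all 19324 probe sets, called at an adjusted p under 0.05. A group of 2 or fewer arrays is assumed to vary like the others of its fit. Nothing says that replicates are separate plantings, so p-values measure the spread between pools, which may be technical. The number of arrays limits the precision. In simulated data, changes of 1 log2 unit were called for 96% of 50 probe sets for genotype in apices, 58% for day 4 to day 21, 46% for the mimic line, 24% for the genotype difference of the day 4 to day 11 change and 72% for leaf 11. Of changes of 0.5, 96% were called for genotype in primordia and 90% in rosette leaves. The simulation changed few probe sets, and no others differed between groups. Most of these comparisons called far more in the data, so the adjusted cutoff was looser there than in the simulation. The shares hold for the simulated setting only.

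Members and lists were chosen with earlier results of these data known. Values by array are given for at most 5 called genes in each direction, with the same sign in every stratum or, with 1 stratum, no overlap of arrays. A few others were given after their values were seen: CYP71B23 at leaves 1/2 and CYP71B22 by genotype in apices and primordia. Alternatives were quantile normalization, array weights (statmod 1.5.0), probe sets above the median signal, removal of a trend on gene length, a replicate block, only the groups compared, and each replicate left out. Also tried, after seeing the data, were another mimic control, primordia without leaf 11, and tests between experiments.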

Additional observations from a re-analysis of the deposited data

Results flagged for a closer look

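Differences between groups in the same contrast were called for 12 P450 genes and for the cyclophilin CYP71. Groups of 3 or fewer arrays allow no check for single arrays that stand apart.

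Between genotypes, the change of CYP71B22 from day 4 to day 11 in apices was larger in FRI;flc-3 by 1.57, and its change from leaves 1/2 to leaf 9 in primordia by 2.35. The change of CYP71B34 past full expansion differed by -0.61.

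Between experiments (experiment 2 minus experiment 1, tests chosen after seeing the data), the genotype difference of CYP71B22 in expanded rosette leaves differed by -1.05 (adjusted p = 0.00713), in a test that called 3.21% of all probe sets. For cauline against rosette leaf 11, where 40.8% of all probe sets differed between experiments, the differences were 0.85 for CYP71B28, -0.57 for CYP718, -0.86 for CYP71B34, 0.81 for CYP71B5 and 1.63 for CYP71. For leaves 1/2 to leaf 9, where 44% did, they were 2.80 for CYP71B23, 1.88 for CYP71B36, 1.42 for CYP71B24, -0.56 for CYP71B28, 0.44 for CYP71B26, 0.41 for CYP71B6, 0.38 for CYP71B25, 0.31 for CYP71B37 and -1.49 for CYP71. The shares of all probe sets that differed were large in the last 2 tests, and the P450 genes are to be read against them.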

How the results depend on the processing

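For the 108 called differences of single genes, 950 values were computed under the other settings. Of these, 854 kept the call and direction, 96 lost the call and 0 turned direction. Quantile normalization ended 5 calls, array weights 6 and removal of a trend on gene length 7. Limiting the tests to probe sets with a mean above the median left 6 P450 genes and so fewer calls: 0 for genotype in apices, 5 for day 4 to day 21, 5 for FRI;flc-3 day 4 to day 11, 0 for the genotype difference of that change, 3 for the mimic line, 4 for genotype in primordia, 3 for primordium position and 0 for its genotype difference, 2 for genotype in rosette leaves, 6 for leaf 11, 5 for expanded leaf position, 4 past expansion and 6 for primordium to expanded leaf. Array weights gave 3 calls for the mimic line, 9 for genotype in rosette leaves and 2 for the genotype difference past expansion, and only the groups compared gave 2 for the mimic line; the cause was not tested. With 1 replicate left out, the counts ranged from 0 to 1 for genotype in apices, from 0 to 0 for the genotype difference of the day 4 to day 11 change, from 2 to 8 for the mimic line, from 5 to 6 for genotype in primordia, from 7 to 10 for leaf 11 and from 0 to 1 for the genotype difference past expansion. Leaving out a mimic or FRI;FLC array at day 6 leaves as few as 1 control, assumed to vary like the other groups. Neither the labels nor the data show that replicate numbers pair arrays (median correlation of same-numbered deviations 0.080 in apices, -0.012 in primordia and 0.0146 in leaves). With the replicate block the P450 counts were those of the fit without it, except 6 against 5 for genotype in rosette leaves. With the control as the mean of FRI;FLC days 4 and 9, 6 P450 genes were called in the mimic line, all higher.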
